A study of Danio rerio with 6 samples.

Results

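The genes described here serve the glial filament and the handling of glutamate in the retina. They comprise every probe set annotated to *gfap* or *vim*, or to a symbol that starts with slc1a3 or glul. This rule found 6 probe sets of 5 genes, out of 15502 probe sets and 8793 named genes compared, namely 1 each for *gfap*, *vim*, *slc1a3a* and *glula* and 2 for *glulb*. RNA came from dissociated retinas of untreated adult zebrafish of the line Tg(3.2TalphaCP:EGFP), in which a promoter of the cone transducin α gene drives EGFP in cone photoreceptors. Both populations therefore carry the transgene, and a cell sorter parted them by fluorescence into GFP-positive cells (3 arrays) and GFP-minus cells (3 arrays), each array holding 1 biological replicate from pooled retinas. The tissue field of the labels reads cone cells for both populations, although the second is the sorted fraction without EGFP signal.

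Müller glia are the radial glia of the vertebrate retina. Their processes span the tissue, are stiffened by the intermediate filament proteins GFAP and vimentin, and surround the synapses of photoreceptors and inner neurons. In mammals they clear released glutamate through the transporter EAAT1 (GLAST), encoded by *SLC1A3*, and turn it into glutamine with glutamine synthetase, encoded by *GLUL*. Zebrafish have paralogs of several of these genes, of which *slc1a3a*, *glula* and *glulb* were on the array.

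The measurements are log2 values, 1 per probe set and array. The lowest value on every array was 2.17, shared by between 10.3% and 11.7% of the probe sets of an array, which is where no signal above background was left. Some other probe sets held 1 value on all 6 arrays, such as *sox9a* at 2.19 and *mitfb* at 2.21. The share without signal may therefore be larger. The array medians lay between 4.58 and 4.61 in GFP-positive and between 4.78 and 4.86 in GFP-minus samples. None of the 6 member probe sets was at the lowest value on any array, which does not by itself show that the dim ones had signal. Levels are compared below between samples only, since the brightness of a probe set also depends on how well its probes bind. In such sorted bulk samples, fewer cells of a type and less RNA per cell cannot be told apart.

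The sort was reflected in the marker lists. Of 18 measured cone genes, 16 were higher in GFP-positive cells, among them *gnat2*, whose promoter drives the reporter (54.3-fold, limma adjusted p = 0.0308), and of 9 rod genes 1 was higher. The rod count was 8 at an unadjusted p under 0.05, with a median difference of 1.45. It was 6 with the dim probe sets left out and 8 after centring on the median. Over all probe sets, 463 were called higher as deposited, 775 with the dim ones left out and 6151 after centring. Of 19 leukocyte and microglia genes, 17 were lower in GFP-positive cells, as were 9 of 12 erythrocyte genes. No cone or rod gene was lower and no leukocyte or erythrocyte gene was higher in limma, also at an unadjusted p under 0.05. These counts depended on single arrays. The cone count was 3 without GFP-positive replicate 2 or 3, 5 without GFP-positive replicate 1 and 9, 7 and 17 without GFP-minus replicates 1, 2 and 3. The leukocyte count was 8 without GFP-positive replicate 2 or 3, 10 without GFP-minus replicate 2 and at least 14 otherwise, and the erythrocyte count was 5 without GFP-positive replicate 2 or 3, 6 without GFP-minus replicate 2 and at least 7 otherwise. The rod count was 4 without GFP-minus replicate 3 and 0 without each other array. Among the arrays of its population, GFP-minus replicate 3 held the most cone signal (log2 of the summed linear values of the list 12.03, against 10.74 and 9.86 in replicates 1 and 2), and GFP-positive replicate 1 held the most leukocyte signal (12.79, against 11.82 and 11.71 in replicates 2 and 3).

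The member genes moved in opposite directions. Both filament genes, *gfap* and *vim*, were about 2-fold higher in GFP-positive cells, the transporter gene *slc1a3a* was 19.4-fold lower there, and neither glutamine synthetase gene passed the test. Of 6 member probe sets, 2 were thus called higher, where 2.99% of all probe sets were called higher, and 1 was called lower, where 4.69% of all probe sets were called lower (limma, adjusted p under 0.05). The same probe sets were those whose populations did not overlap. This was seen in the higher direction for 2 members and 13.9% of all probe sets, and in the lower direction for 1 member and 13% of all probe sets. With so few members, these counts describe the genes and say nothing about the group as a whole.

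The glial fibrillary acidic protein gene *gfap* had log2 values of 5.29, 5.09 and 5.19 in GFP-positive replicates 1, 2 and 3, against 4.05, 4.13 and 4.36 in GFP-minus replicates 1, 2 and 3. All GFP-positive arrays lay above all GFP-minus arrays, with gaps within a population smaller than the gap between them. On the log2 scale *gfap* differed by 1.01 (standard error 0.10, 95% interval 0.73 to 1.28, limma adjusted p = 0.0138), a 2.01-fold higher level in GFP-positive cells. The mean was 5.19 ± 0.10 in GFP-positive cells, above the array medians, and 4.18 ± 0.16 in GFP-minus cells, below them (SD, n = 3 arrays each).

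The vimentin gene *vim*, which encodes the second filament protein of radial glia and is also expressed by mesenchymal and blood cells, had log2 values of 8.08, 8.61 and 8.52 in GFP-positive replicates 1, 2 and 3. In GFP-minus replicates 1, 2 and 3 it had 7.31, 7.23 and 7.31. The populations did not overlap, and the GFP-minus arrays lay close together while GFP-positive replicate 1 was lower than the other GFP-positive arrays. The difference was 1.12 (standard error 0.16, 95% interval 0.70 to 1.53, limma adjusted p = 0.0269), a 2.17-fold higher level in GFP-positive cells. The mean was 8.40 ± 0.28 in GFP-positive cells and 7.29 ± 0.05 in GFP-minus cells (SD, n = 3 arrays each), above the array medians in both.

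The glutamate transporter gene *slc1a3a* had log2 values of 4.45, 4.29 and 3.48 in GFP-positive replicates 1, 2 and 3, against 7.51, 9.28 and 8.27 in GFP-minus replicates 1, 2 and 3. It was the member with the largest difference and also with the widest spread among the GFP-minus arrays, which covered 1.76 log2 units. The difference was -4.28 (standard error 0.56, 95% interval -5.76 to -2.80, limma adjusted p = 0.0226). The GFP-positive level was 5.14% of the GFP-minus level. The mean was 4.07 ± 0.52 in GFP-positive cells, below the array medians and so nearer to background, and 8.35 ± 0.88 in GFP-minus cells (SD, n = 3 arrays each). Only 0.632% of all probe sets had a more negative difference.

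The glutamine synthetase gene *glula* was bright in both populations, with log2 values of 12.38, 13.20 and 12.94 in GFP-positive replicates 1, 2 and 3 and 12.26, 12.52 and 12.60 in GFP-minus replicates 1, 2 and 3. The populations overlapped, and the difference of 0.38 (95% interval -0.28 to 1.04, limma adjusted p = 0.491) leaves room for a lower as well as for a higher level in GFP-positive cells.

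For the paralog *glulb*, the brighter probe set had log2 values of 8.97, 10.12 and 10.20 in GFP-positive replicates 1, 2 and 3, against 10.19, 10.29 and 10.80 in GFP-minus replicates 1, 2 and 3. GFP-positive replicate 1 was the lowest of all arrays, and the highest GFP-positive value was above the lowest GFP-minus value. Its difference was -0.67 (95% interval -1.76 to 0.43, limma adjusted p = 0.463). The second probe set was dim, with 3.49, 3.604 and 3.57 in GFP-positive replicates 1, 2 and 3, against 3.92, 3.56 and 3.58 in GFP-minus replicates 1, 2 and 3. These overlapped, with a difference of -0.13 (95% interval -0.43 to 0.17, limma adjusted p = 0.604).

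For the 3 called members and for *glula* and *glulb* alike, 3 arrays against 3 allow no exact permutation p below 0.1 (two-sided). This smallest value was reached by *gfap*, *vim* and *slc1a3a*, while *glula* had 0.3 and *glulb* 0.2 and 0.5.

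**Figure D1:**
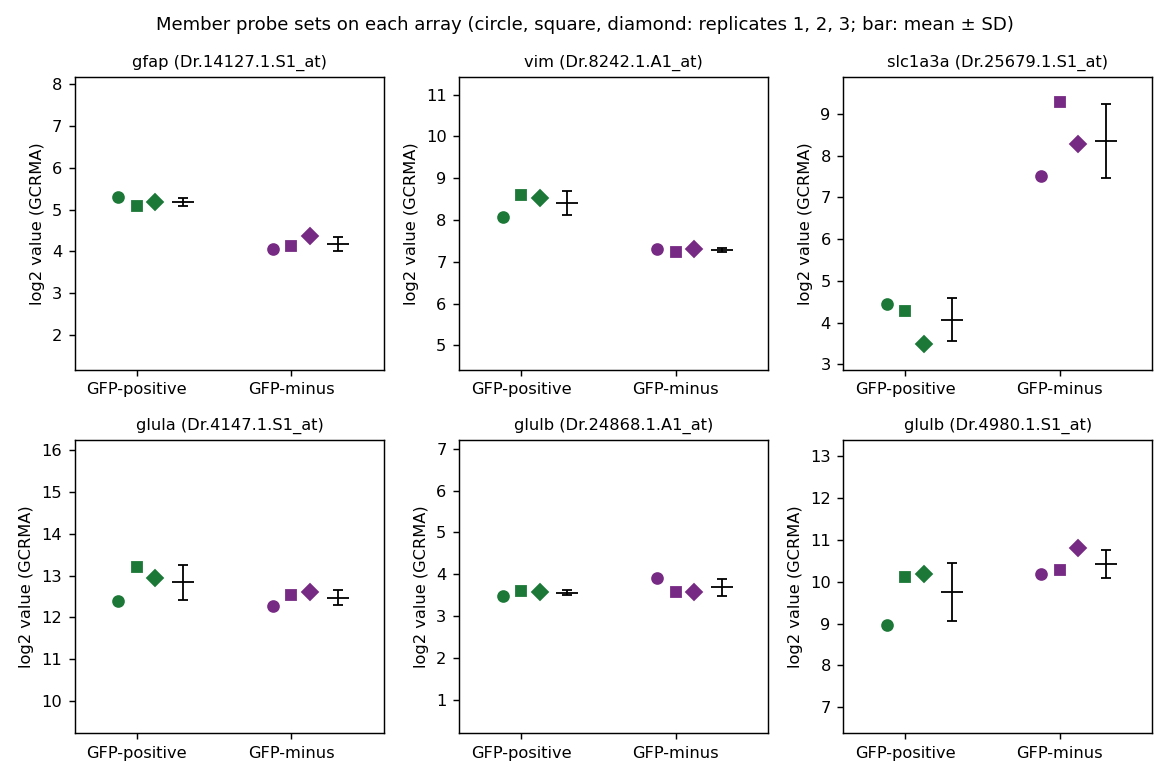
Log2 value of each member probe set on each array, with GFP-positive arrays left of GFP-minus arrays and every axis spanning the same number of log2 units. Circles, squares and diamonds are replicates 1, 2 and 3, and bars are the mean ± SD of 3 arrays. The populations are apart for *gfap*, *vim* and *slc1a3a* and overlap for *glula* and both *glulb* probe sets.

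The calls of the 3 genes depended on single arrays, while their directions did not. Without GFP-positive replicate 2 or 3 or GFP-minus replicate 2, *gfap* lost its call (limma adjusted p = 0.0560, 0.0711 and 0.0622). The call of *vim* held when GFP-positive replicate 1 was left out and was lost without each other array (limma adjusted p between 0.0761 and 0.109), and that of *slc1a3a* held when GFP-minus replicate 1 was left out and was lost without each other array (limma adjusted p between 0.0537 and 0.0912). Their differences without single arrays ranged between 0.94 and 1.097 for *gfap*, between 1.02 and 1.28 for *vim* and between -4.70 and -3.82 for *slc1a3a*.

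The size of the filament differences also depended on how the arrays were scaled. Centring each array on its median raised all differences by 0.225, and setting the arrays to equal levels of the hybridization controls, RNAs added before hybridization, moved the median of all differences by -0.737. Relative to the median difference of all probe sets, *gfap* was at 1.00, *vim* at 1.11 and *slc1a3a* at -4.29 as deposited, and both shifts leave these relative values as they are. Under the hybridization-control scaling itself, *gfap* had a difference of 0.27 and *vim* of 0.38, and both lost the call (limma adjusted p = 0.439 and 0.328). *slc1a3a* had -5.02 in that scaling and kept it (limma adjusted p = 1.61e-05). The difference of *glula* turned to -0.36 under the hybridization-control scaling (limma adjusted p = 0.415). The dim *glulb* probe set turned to 0.09 with median centring (limma adjusted p = 0.605) and was called lower under the hybridization-control scaling, at -0.87 (limma adjusted p = 0.0487).

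**Figure D2:**
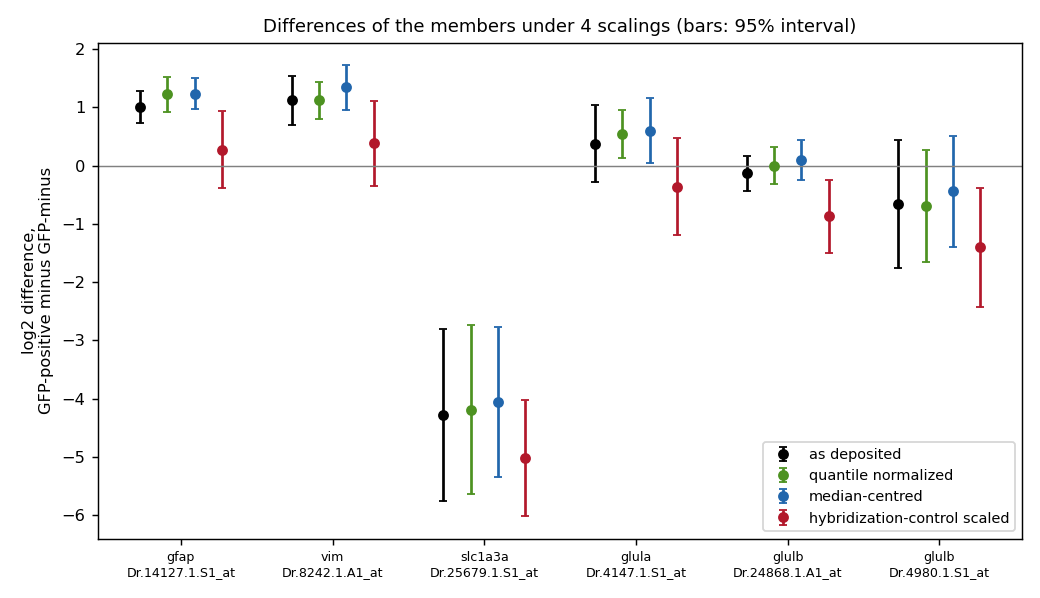
Log2 difference, GFP-positive minus GFP-minus, of each member probe set with the arrays as deposited and under 3 other scalings, with bars for the 95% interval of limma. *gfap* and *vim* stay above 0 and *slc1a3a* below 0 in all 4, while the intervals of *gfap* and *vim* include 0 under the hybridization-control scaling.

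Whether the members changed unequally can be asked by subtracting the log2 value of one probe set from that of another on the same array. A shift of all values of an array cancels in this, while a scaling that depends on the level does not. Under quantile normalization the difference of *gfap* was 1.22 and that of *vim* 1.12, against 1.01 and 1.12 as deposited. *gfap* minus *slc1a3a* was 0.84, 0.80 and 1.71 in GFP-positive replicates 1, 2 and 3, against -3.46, -5.14 and -3.91 in GFP-minus replicates 1, 2 and 3. The change between the populations was 5.29, with no overlap, and stayed between 4.80 and 5.65 without single arrays. *vim* minus *slc1a3a* was 3.63, 4.32 and 5.04 in GFP-positive replicates 1, 2 and 3, against -0.20, -2.05 and -0.96 in GFP-minus replicates 1, 2 and 3, a change of 5.40. Only the shift between populations is meaningful here, since the 2 probe sets of a pair differ in brightness for a given amount of RNA.

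For *gfap* and *vim* set against each other, the populations were not apart. Their difference on an array was -2.79, -3.52 and -3.33 in GFP-positive replicates 1, 2 and 3 and -3.26, -3.10 and -2.95 in GFP-minus replicates 1, 2 and 3, which overlapped (change of -0.11, exact permutation p = 0.7, two-sided). Of the 15 pairs of member probe sets, 12 had populations that did not overlap, each at the smallest exact p of 0.1 (0.125 adjusted over the pairs). The pairs share their 6 probe sets and so are not independent. Except for *glula* minus the brighter *glulb* probe set, each of the 12 held *gfap*, *vim* or *slc1a3a*, whose populations were already apart. The share among pairs of other probe sets was not computed. Against *glula*, *gfap* shifted by 0.63 and *vim* by 0.74, and *slc1a3a* shifted by -4.66. *glula* and the brighter *glulb* probe set also parted, since *glula* minus *glulb* was 3.41, 3.09 and 2.74 in GFP-positive replicates 1, 2 and 3, against 2.07, 2.23 and 1.81 in GFP-minus replicates 1, 2 and 3. This shift was 1.04 without overlap, although neither probe set was called on its own. It holds for the brighter *glulb* probe set only, since *glula* minus the dim *glulb* probe set shifted by 0.51 with overlap (exact permutation p = 0.3, two-sided).

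**Figure D3:**
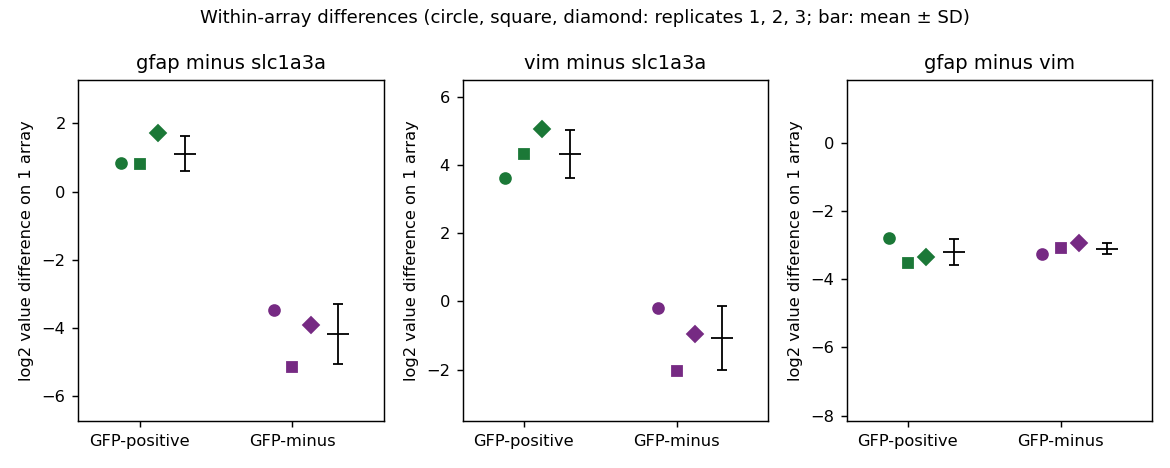
Difference between the log2 values of 2 member probe sets on the same array, for *gfap* minus *slc1a3a*, *vim* minus *slc1a3a* and *gfap* minus *vim*, with GFP-positive arrays left of GFP-minus arrays. Circles, squares and diamonds are replicates 1, 2 and 3, and bars are the mean ± SD of 3 arrays. The first 2 pairs separate the populations by 5.29 and 5.40 and the last one does not.

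Intermediate filament genes outside the members went both ways. Of 24 measured genes of filament proteins and their linkers, 2 were higher, 8 were lower and 14 were not called (limma), with a median difference of -1.13, against 0.01 over all named genes. Over all 8793 named genes, 3.40% were higher and 5.83% lower. The 2 higher genes were *inaa*, an internexin gene of neuronal filaments, and *viml*, a vimentin-like gene. *inaa* had 10.95, 11.71 and 11.85 in GFP-positive replicates 1, 2 and 3, against 6.70, 6.59 and 8.60 in GFP-minus replicates 1, 2 and 3 (difference 4.21, limma adjusted p = 0.0362). Its GFP-minus array with the highest value was replicate 3, the one with the most cone signal.

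*viml* had 7.63, 7.88 and 7.37 in GFP-positive replicates 1, 2 and 3, against 6.29, 5.69 and 6.19 in GFP-minus replicates 1, 2 and 3 (difference 1.57, limma adjusted p = 0.0277). Under the hybridization-control scaling its difference was 0.83 (limma adjusted p = 0.0562). Without single arrays, *inaa* kept its call only without GFP-minus replicate 3, and *viml* lost its call in every case. The other internexin gene, *inab*, had a difference of 0.67 (limma adjusted p = 0.510).

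All 8 lower genes were keratins, the filament proteins of epithelia, out of 9 measured. They included *krt91* (15.3-fold lower, limma adjusted p = 0.00282), *krt4* (17.0-fold lower, limma adjusted p = 0.00390) and *krt18b* (19.6-fold lower, limma adjusted p = 0.00755). *krt91* had 9.01, 8.93 and 8.50 in GFP-positive replicates 1, 2 and 3, against 12.82, 12.68 and 12.75 in GFP-minus replicates 1, 2 and 3. The log2 of the summed linear keratin values was between 9.96 and 10.41 in GFP-positive and between 13.57 and 13.82 in GFP-minus cells. The lower count was 4 without GFP-positive replicate 2 or 3, 5 without GFP-positive replicate 1 or GFP-minus replicate 2 and 7 otherwise. Of the 8 keratin calls, 4 (*krt4*, *krt15*, *krt18b* and *krt91*) held without each single array. Those of *krt8*, *krt94* and *krt17* were lost without GFP-positive replicate 2 or 3 and without at least 1 other array, and that of *krt5* was lost whichever array was left out. The ninth keratin, *krt18a.1*, had -1.89 (limma adjusted p = 0.112). The 3 measured lamin genes and the 5 linker genes were not called, and *ppl* and *dspa* among the linkers had differences of -3.49 and -3.04 (limma adjusted p = 0.0580 and 0.0572).

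Of the other genes of the slc1 family, only *slc1a2b* and *slc1a4* were measured, and neither was called (limma; without adjustment, 1 was higher and 0 were lower at p under 0.05). Under quantile normalization, after centring on the median and without GFP-positive replicate 1, 1 of these 2 genes was called higher. Over all 15502 probe sets, 679, 6151 and 323 were called higher in these 3 settings. *slc1a2b* is a zebrafish counterpart of the gene for the glutamate transporter EAAT2. It had 12.29, 12.77 and 12.73 in GFP-positive replicates 1, 2 and 3, against 11.89, 12.10 and 12.02 in GFP-minus replicates 1, 2 and 3. All GFP-positive arrays lay above all GFP-minus arrays, with a difference of 0.59 (95% interval 0.18 to 1.00, limma adjusted p = 0.113). *slc1a4*, a neutral amino acid transporter gene, had a difference of 0.17 (95% interval -0.26 to 0.59, limma adjusted p = 0.612).

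In glutamate and glutamine metabolism and transport, 1 of 24 measured genes was lower, none was higher and 23 were not called (limma; without adjustment, 3 were higher and 5 lower at p under 0.05), with a median difference of 0.06. The gene called was *slc38a5b*, of a family of glutamine and neutral amino acid carriers, which was 5.51-fold lower (limma adjusted p = 0.00349). It had 3.28, 3.05 and 3.44 in GFP-positive replicates 1, 2 and 3, against 5.63, 5.68 and 5.84 in GFP-minus replicates 1, 2 and 3, and its call held without each single array. The GFP-positive values lay below the array medians and so nearer to background, which limits the fold. The counts depended on the scaling, with 8 higher and 2 lower after centring on the median and 0 higher and 8 lower after scaling to the hybridization controls. So did those of all 15502 probe sets, with 6151 higher and 1102 lower after centring and 195 and 3251 after the control scaling. Without GFP-positive replicate 1, 2 genes of the list were higher, and without GFP-minus replicate 1, 2 were lower. The glutamate dehydrogenase gene *glud1a* had a difference of -2.77 (limma adjusted p = 0.104) and the mitochondrial aspartate aminotransferase gene *got2a* of 1.78 (limma adjusted p = 0.0823), neither of them called.

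Müller glia genes other than the members had few calls, as had all named genes. Of 27 measured genes, 1 was higher, 1 was lower and 25 were not called (limma; without adjustment, 5 were higher and 2 lower at p under 0.05), with a median difference of 0.04 and 17 differences above 0. The calls were 3.70% of the list in each direction, against 3.40% higher and 5.83% lower over all named genes. The counts were 9 higher and 1 lower after centring on the median, and 0 and 7 after scaling to the hybridization controls. Among all 15502 probe sets, 6151 were higher and 1102 lower after centring, and 195 and 3251 after scaling to these controls. The retinaldehyde-binding protein gene *rlbp1a*, which serves the visual cycle, had 12.14, 12.32 and 12.34 in GFP-positive replicates 1, 2 and 3, against 10.75, 10.89 and 11.22 in GFP-minus replicates 1, 2 and 3. This is a 2.48-fold higher level (limma adjusted p = 0.0153), close in size to the differences of *gfap* and *vim*, and like them it was not called under the hybridization-control scaling (difference 0.57, limma adjusted p = 0.158). Without GFP-positive replicate 2 or 3 or GFP-minus replicate 2, the same arrays as for *gfap*, its call was lost.

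*her9*, a repressor gene of the hairy family, was lower, with 5.04, 4.73 and 5.16 in GFP-positive replicates 1, 2 and 3 against 6.31, 6.42 and 6.99 in GFP-minus replicates 1, 2 and 3 (difference -1.59, limma adjusted p = 0.0292), and it kept its call without GFP-minus replicate 3 only. Of the 27 genes, 6 had all GFP-positive arrays above all GFP-minus arrays and 4 had all of them below, beside 13.9% and 13% of all probe sets. Among those not called, the carbonic anhydrase gene *ca2* had a difference of 0.74 (limma adjusted p = 0.182) and *dap1b* of 1.27 (limma adjusted p = 0.0557), both without overlap and above 0, and the tetraspanin gene *cd81a* had -0.58 (limma adjusted p = 0.163), without overlap and below 0. Overlap was seen for 3 further genes with high levels. The apolipoprotein E gene *apoeb* had a difference of -0.13 (95% interval -0.99 to 0.73), the carbonic anhydrase gene *cahz*, also known from erythrocytes, of -0.20 (95% interval -1.40 to 0.99) and the connexin gene *gja1b* of -0.51 (95% interval -2.02 to 1.00). The fatty acid-binding protein gene *fabp7a* had a difference of 1.58 (95% interval -0.34 to 3.50), with all GFP-positive arrays above all GFP-minus arrays, and the calcium-binding protein gene *s100b*, dim in both populations, had -1.17 (95% interval -3.05 to 0.72), with overlap. None of these 5 genes was called. On all 6 arrays, *apoea* and *cyp26c1* were at the lowest value, and *sox9a* had the same value of 2.19, close to it.

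**Figure D4:**
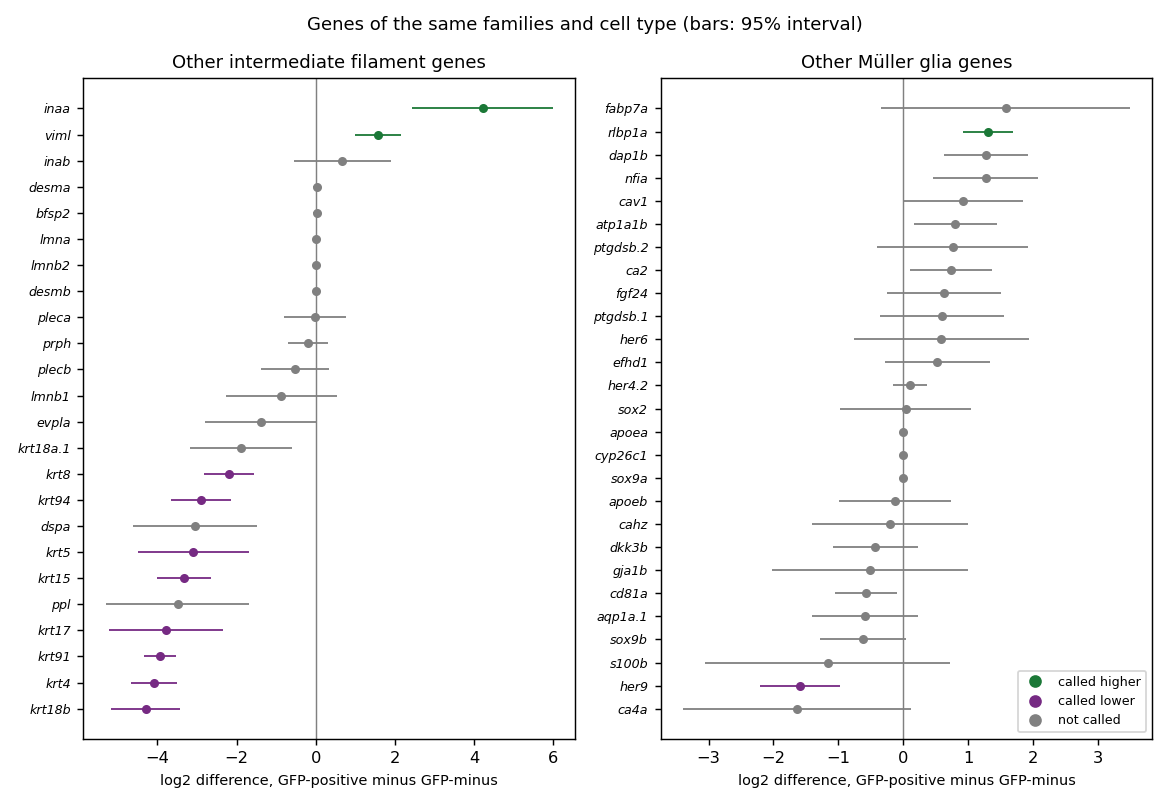
Log2 difference, GFP-positive minus GFP-minus, of the other measured intermediate filament genes (left) and of the other measured Müller glia genes (right), with bars for the 95% interval of limma. Green marks genes called higher, purple genes called lower and grey genes not called. The called keratins lie between -4.30 and -2.19, and most Müller glia intervals include 0.

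Genes known from Müller glia that respond to injury or re-enter the cell cycle were mostly lower where they were called with the arrays as deposited. Of 25 measured genes, 1 was higher, 5 were lower and 19 were not called (limma; without adjustment, 1 was higher and 9 lower at p under 0.05). These are 4% and 20% of the list, against 3.40% and 5.83% of all named genes. The counts were 7 higher and 6 lower after centring on the median, and 0 and 9 after scaling to the hybridization controls. Beside these stand 6151 higher and 1102 lower of all 15502 probe sets after centring, and 195 and 3251 after the control scaling. The growth factor gene *mdka* (midkine) was 2.56-fold higher (limma adjusted p = 0.0293). Scaled to the hybridization controls, its difference was 0.62 and not called (limma adjusted p = 0.0666). The chemokine receptor gene *cxcr4b* was 37.9-fold, the matrix protease gene *mmp9* 18.7-fold, the cytokine signalling suppressor gene *socs3a* 6.64-fold and the EGF-like growth factor genes *hbegfb* and *hbegfa* 6.16-fold and 3.81-fold lower (limma adjusted p between 0.00221 and 0.0413). Of these, *cxcr4b*, *mmp9* and *socs3a* are also expressed by leukocytes. The lower count was 1 without GFP-positive replicate 3, 2 without GFP-minus replicate 2 or 3 and at least 4 otherwise, and the call of *mdka* held only without GFP-minus replicate 1.

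The leukocyte and microglia list, the erythrocyte list and the keratins were lower in GFP-positive cells like *slc1a3a*. Of 19 measured leukocyte and microglia genes, 11 had a more negative difference than *slc1a3a*, and the median of that list was -4.49, beside -4.28 for the erythrocyte list, -3.33 for the keratins and -4.28 for *slc1a3a* itself. The log2 of the summed linear values of the leukocyte list was 12.79, 11.82 and 11.71 in GFP-positive replicates 1, 2 and 3, against 15.71, 16.26 and 15.96 in GFP-minus replicates 1, 2 and 3. Within each population, the order of the arrays as deposited was the same for this sum as for *slc1a3a*. Replicate 1 was highest among GFP-positive and replicate 2 highest among GFP-minus arrays. The brightest genes weigh most in this sum, and not every gene of the list had its order. For the erythrocyte list the order was another in both populations, with sums of 12.60, 13.10 and 12.99 in GFP-positive replicates 1, 2 and 3, against 15.58, 15.84 and 15.97 in GFP-minus replicates 1, 2 and 3. The keratin sum had the order of *slc1a3a* among the GFP-positive but not among the GFP-minus arrays. These orders, and those below, are for the arrays as deposited. The hybridization controls had means of 10.36, 9.89 and 9.96 in GFP-positive replicates 1, 2 and 3. In GFP-minus replicates 1, 2 and 3 they had 9.56, 9.41 and 9.03. Scaled to them, the orders of *slc1a3a* and of the leukocyte sum differ in each population. The defining gene *ptprc*, the pan-leukocyte phosphatase, had 4.22, 3.68 and 3.68 in GFP-positive replicates 1, 2 and 3, against 8.90, 9.47 and 9.70 in GFP-minus replicates 1, 2 and 3. The actin-bundling gene *lcp1* had 7.17, 5.97 and 5.49 in GFP-positive replicates 1, 2 and 3, against 11.46, 12.14 and 11.92 in GFP-minus replicates 1, 2 and 3. As deposited, *lcp1* thus had the order of *slc1a3a* in both populations, while *ptprc* was highest in replicate 3 of the GFP-minus arrays. None of the 19 genes was at the lowest value on all arrays. What part leukocytes, erythrocytes or epithelial cells have in the *slc1a3a* value was not tested.

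The log2 of the summed linear values of the other Müller glia genes was 14.59, 15.06 and 15.05 in GFP-positive replicates 1, 2 and 3 and 14.20, 14.63 and 14.84 in GFP-minus replicates 1, 2 and 3, so that the populations overlapped. The brightest genes weigh most in such a sum. On GFP-minus replicate 3 the brightest was *cahz* (12.85), which is also on the erythrocyte list. Replicate 1 was the lowest array of this sum in each population, as it was for *glula* and the brighter *glulb* probe set. Of the Müller glia genes that varied by over 0.1 within the population, replicate 1 was the lowest array for 16 of 23 in GFP-positive and for 14 of 22 in GFP-minus cells, where over all probe sets the share was 42.7% and 42.3%. Of the leukocyte and microglia genes, replicate 1 was the lowest array for 0 of 19 in GFP-positive and for 15 of 19 in GFP-minus cells. *gfap* and *slc1a3a* went against the Müller glia order in GFP-positive cells, where replicate 1 was their highest array. In GFP-minus cells replicate 1 was the lowest array of both. The cone list was higher in GFP-positive cells like *gfap* and *vim*, and the log2 of its summed linear values was 16.57, 16.45 and 16.87 in GFP-positive replicates 1, 2 and 3, against 10.74, 9.86 and 12.03 in GFP-minus replicates 1, 2 and 3. Within the populations the orders agreed in part only. The cone sum was highest in replicate 3 and lowest in replicate 2 of each population. Among the GFP-positive arrays, *gfap* was highest in replicate 1 and, like the cone sum, lowest in replicate 2. Among the GFP-minus arrays it was, like the cone sum, highest in replicate 3, but lowest in replicate 1. *vim* was highest in replicate 2 and lowest in replicate 1 of the GFP-positive arrays, and it stayed between 7.23 and 7.31 in GFP-minus cells. The part of the cone signal in the values of *gfap* and *vim* was not tested.

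**Figure D5:**
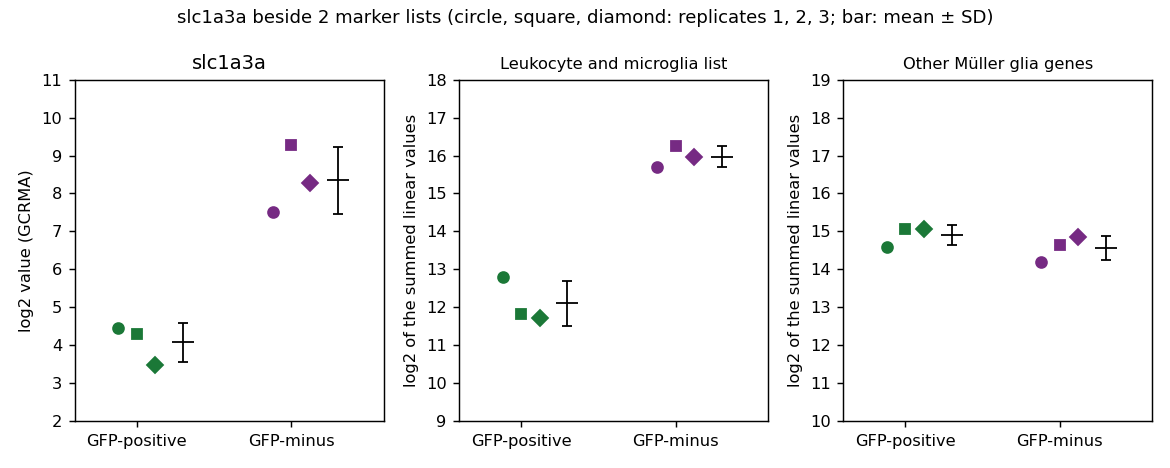
Log2 value of *slc1a3a* (left) beside the log2 of the summed linear values of the 19 leukocyte and microglia genes (middle) and of the 27 other Müller glia genes (right), with GFP-positive arrays left of GFP-minus arrays. Circles, squares and diamonds are replicates 1, 2 and 3, and bars are the mean ± SD of 3 arrays. The leukocyte sum separates the populations in the direction of *slc1a3a*, and the Müller glia sum does not separate them.

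Where the lists of the remaining cell types had calls with the arrays as deposited, these were in the lower direction. This direction depended on the scaling. After centring on the median, each of these lists had genes called higher, among them 4 horizontal, 4 amacrine, 5 vessel and 4 pigment genes. At most 2 genes of a list were then lower. Centring raised all differences by 0.225, also those of genes with 1 value on all 6 arrays as deposited, such as the pigment genes *mitfb*, *pmelb* and *tyr*. Over all 15502 probe sets, 6151 were called higher after centring, so the higher calls in these lists need not be of expressed genes. After scaling to the hybridization controls, none was higher, where 195 of all probe sets were higher and 3251 lower. In limma, 1 of 6 oligodendrocyte and Schwann cell genes was lower (the myelin gene *mbpb*, 5.08-fold), as were 1 of 9 horizontal cell, 1 of 6 bipolar cell, 3 of 14 amacrine cell and 2 of 8 retinal ganglion cell genes, and none of these was higher, also at an unadjusted p under 0.05. These lower calls amounted to 16.7% of the oligodendrocyte, 11.1% of the horizontal, 16.7% of the bipolar, 21.4% of the amacrine and 25% of the ganglion cell genes, against 5.83% of all named genes. Among the amacrine genes, *slc32a1*, the vesicular transporter gene of GABA and glycine, had 10.02, 10.36 and 10.19 in GFP-positive replicates 1, 2 and 3, against 10.80, 11.22 and 11.07 in GFP-minus replicates 1, 2 and 3 (limma adjusted p = 0.0465). Of 14 vessel, mural cell and fibroblast genes, 6 pigment epithelium and pigment cell genes and 5 lens genes, none was called, and at an unadjusted p under 0.05 there were 2 lower vessel genes and 1 higher pigment gene. With GFP-minus replicate 1 left out, 2 amacrine and 2 vessel genes were lower, and with any other array left out 0 of each. With single arrays left out, 2 ganglion cell genes and up to 1 gene each of the oligodendrocyte, horizontal and bipolar cell lists were called lower, and up to 1 pigment gene higher.

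The genes whose values most resembled those of a member over the 6 arrays differed from member to member. Among the candidate genes (mean above the median, SD of at least 0.3 over the arrays), those closest to *gfap* by Pearson's r were *ddc*, an aromatic amino acid decarboxylase gene (r = 0.997), *clul1* (0.996), *smtnb* (0.995), *nherf1a* (0.994) and the proteasome subunit gene *psmb7* (0.994). Those closest to *vim* were *ndufs4* (0.997), *atp5mea* (0.997), *elp5* (0.997), *ndufa5* (0.996) and *rida* (0.996), of which *ndufs4* and *ndufa5* encode subunits of respiratory complex I and *atp5mea* one of ATP synthase.

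Those closest to *slc1a3a* were *dhrs9* (0.998), *plp2b* (0.998), *tcp11l2* (0.997), *smox* (0.996) and *pik3cg* (0.996), a phosphoinositide kinase gene of leukocytes in mammals. *dhrs9*, a dehydrogenase gene, had 6.39, 6.19 and 5.66 in GFP-positive replicates 1, 2 and 3, against 8.86, 9.88 and 9.18 in GFP-minus replicates 1, 2 and 3, with the arrays of each population in the same order as for *slc1a3a*. Since *dhrs9* was picked by likeness over these same arrays, this order is no separate observation. All 15 of these genes were called in the direction of their member, and the difference between the populations, which all 6 arrays share in, enters their likeness.

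For *glula* and *glulb*, which were not called, the closest genes were these. *glula* was most like *rpe65a*, the retinoid isomerase gene of the pigment epithelium (r = 0.987), *pcmtl* (0.985), *zgc:113162* (0.984), *uqcrfs1* (0.982) and the clock gene *cry2* (0.981). *rpe65a* had 6.75, 8.58 and 8.21 in GFP-positive replicates 1, 2 and 3 and 6.10, 6.96 and 7.18 in GFP-minus replicates 1, 2 and 3, lowest in replicate 1 of each population like *glula*. That shared order is part of the likeness by which *rpe65a* was picked. The brighter *glulb* probe set was most like *atrxl* (0.999), *olfm1b* (0.981), *cebpg* (0.976), *degs1* (0.975) and the immediate early gene *jun* (0.970). None of these 10 genes was called. With 6 arrays and 3898 candidates, such likeness is a description only.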

How the data were processed

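The authors deposited log2 values, 1 per probe set of Affymetrix GeneChip Zebrafish arrays, for which the submitters' processing notes name GCRMA. It subtracts background by probe sequence and normalizes between arrays. Neither its version nor any genome build was stated for these values. Groups and replicate numbers came from the sample titles. Gene names are those of the platform annotation, of which 1 was brought up to date by its gene identifier. Of 15617 probe sets, 115 controls were left out, and of the other 15502, 10795 had 1 symbol, 135 had several and 4572 had none. No sequences of the members were used here.

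Populations were compared with limma 3.58.1 (lmFit, eBayes) in R 4.3.3 over all 15502 probe sets, with Benjamini-Hochberg adjustment, and the procedure was tested on simulated data. No read depth exists for arrays, and 3 arrays per population limit the precision. The labels call the samples biological replicates and do not say whether same-numbered samples come from the same fish. The p-values set a difference against the spread between these samples, part of which may be technical. Lists hold 1 probe set a gene, that with the highest mean. The members and lists were chosen with earlier results of these data known. Genes named were the members, a set of fixed glial and control genes, and the 5 genes most correlated with each member. Added to these were the called genes with the largest differences of the filament, glutamate, oligodendrocyte and both Müller glia lists. In the other cell type lists, the called genes with the largest differences were not named. Genes named outside this rule (*viml*, *inab*, *krt18a.1*, *ppl*, *dspa*, *slc1a4*, *glud1a*, *got2a*, *gja1b*, *ca2*, *dap1b*, *cd81a*, *cyp26c1*, *sox9a*, *mitfb*, *pmelb*, *tyr*, *krt5*, *krt8* and *krt94*) were chosen after their values were seen. Alternatives were a replicate block, a dim filter, 3 other scalings, a trended robust prior, leaving out each array, stricter thresholds and all probe sets of a gene. Figures were drawn with matplotlib 3.10.9.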

Additional observations from a re-analysis of the deposited data

How the results depend on the processing

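With 463 probe sets called higher and 727 lower as deposited, the counts were 194 and 256 in the replicate block, 775 and 881 with the dim filter, 6151 and 1102 after centring on the median, 195 and 3251 after scaling to the hybridization controls and 50 and 201 at an adjusted p under 0.01. Of all calls, 38.9% were higher as deposited, 84.8% after centring and 5.66% after scaling to these controls. Without single arrays they ranged between 103 and 323 and between 214 and 740. The 2 higher and 1 lower members became 0 and 0 in the replicate block and at an adjusted p under 0.01, 1 and 1 with the dim filter (which left out *gfap* and the dim *glulb* probe set) and 0 and 2 under the hybridization-control scaling. They ranged between 0 and 2 and between 0 and 1 without single arrays. In the replicate block the differences of *gfap* (1.01), *vim* (1.12) and *slc1a3a* (-4.28) were not called (limma adjusted p = 0.0756, 0.0982 and 0.0872), nor were they at 0.01. Deviations of same-numbered samples from their group means correlated at 0.55, 0.06 and 0.27 over probe sets, all above 0. GFP-positive replicate 2 correlated best with GFP-minus replicate 3 (0.36). These values do not settle whether the numbers mark pairs, and the main fit took none. Under the hybridization-control scaling *gfap* (0.27) and *vim* (0.38) lost their calls, *glula* turned to -0.36 and the dim *glulb* probe set was called at -0.87, while it turned to 0.0910 after centring. The brighter *glulb* probe set was at -1.40 under the hybridization-control scaling and not called. Without single arrays, differences ranged between 0.94 and 1.097 (*gfap*), 1.02 and 1.28 (*vim*) and -4.70 and -3.82 (*slc1a3a*). The within-array differences against *slc1a3a* kept their sign without each array. Of the Müller glia genes, 9 and 1 were called higher and lower after centring and 0 and 7 after scaling to the controls, against 1 and 1 as deposited. Of 442 list counts under alternatives, 321 stayed within 1.5 times the count as deposited and 121 did not. The 321 include lists that had no calls in a direction both as deposited and in the alternative. Their share is therefore no measure of how stable the calls were. Signals near background limit the folds of *slc1a3a*, *gfap* and *slc38a5b*. The cause of these changes was not tested.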
